A study of Mus musculus with 8 samples.

Results

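The autophagy machinery was examined as a list of 41 mouse genes that encode the core proteins of autophagosome formation and the cargo receptors. The genes were named by symbol for these roles, and all 41 were found through their Ensembl identifiers among the 55359 genes with normalized counts. Macroautophagy encloses cytoplasmic material in a double membrane, the autophagosome, which then fuses with lysosomes. The ULK kinase complex starts the process, a class III PI3-kinase complex marks the membrane, ATG9, ATG2 and WIPI proteins supply it with lipid, and conjugation enzymes attach ATG8 proteins of the LC3 and GABARAP subfamilies, to which cargo receptors such as p62 bind. In Mϕ, parts of the same machinery also act on phagosomes that hold apoptotic cells, a process termed LC3-associated phagocytosis.

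Total RNA was sequenced from bone marrow-derived Mϕ of wild-type C57BL/6 mice, adult males and females, differentiated with M-CSF and GM-CSF (20 ng/mL each). There were 4 groups with 2 samples each. Naïve Mϕ were left untreated (Ctrl) or stimulated for 6 h (LPS) with LPS at 100 ng/mL together with IFNγ at 100 U/mL. Efferocytic Mϕ were co-cultured for 16 h with apoptotic NIH-3T3 fibroblasts at 5 apoptotic cells per Mϕ and then either not stimulated (Eff) or stimulated in the same way (LPSEff). The fibroblasts were of a clonal line that carries a caspase-8 which can be activated by a dimerizer (10 nM), and the dimerizer was present in the co-culture. In all groups, CD45-positive cells were isolated with magnetic beads before RNA was extracted. The samples held between 3481288 and 12020918 recovered reads, with the lowest and the highest number both in Ctrl, so that 3 reads correspond to between 1.73 and 5.71 normalized counts. Such floors cover counting error only. The labels do not say whether the samples of a group came from separate animals or cultures, so that p-values measure only the spread between these samples, which may be technical.

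The labelled cell type was checked with marker genes. The 11 Mϕ markers summed to between 109160 and 164247 normalized counts per sample, and the most abundant of them was Lyz2, which encodes lysozyme. Transcripts of fibroblasts, the cells that were fed to the Mϕ, were present in the efferocytic samples. The sums of 19 fibroblast markers were 1794 and 1647 normalized counts in Ctrl and 2933 and 6145 in Eff. Among stimulated Mϕ they were 3845 and 4308 (LPS) and 10575 and 12063 (LPSEff). Of the 17 that could be tested, 6 were higher in Eff than in Ctrl and 7 were higher in LPSEff than in LPS. With stimulation, 3 were higher in LPS than in Ctrl, where no fibroblasts were added, and 2 in LPSEff than in Eff. Fstl1, the most abundant of them, was at 1580 and 1232 normalized counts in Ctrl already, whereas Col6a3 was at 0 and 8.1 in Ctrl and at 605 and 1020 in Eff. Col6a3, Dcn, Lum and Postn were each at 0 in at least 1 sample. Marker sums of dendritic cells were 2034 and 2579 in Ctrl and 8283 and 16012 in LPS, mostly from Ccr7, which stimulated Mϕ can also express. They were 1312 and 1620 in Eff and 6688 and 6483 in LPSEff, and thus below those of naïve Mϕ with the same stimulation. The sums of neutrophil markers were 1097 and 715 in Ctrl versus 1826 and 2182 in LPS, and 1599 and 1134 in Eff versus 2617 and 1857 in LPSEff. Of the 5 that could be tested, 3 were called higher in LPS vs Ctrl, 1 in LPSEff vs Eff and 1 in Eff vs Ctrl. S100a8 was the most abundant gene, and Retnlg was at 0 in all samples of naïve Mϕ. T cell markers summed to at most 69.1 normalized counts (led by Lck) and B cell markers to at most 29.7 (led by Pax5). The part of fibroblast RNA and of other cells in the results below was not tested, and in bulk samples fewer cells of a type cannot be told apart from less RNA per cell.

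The stimulation itself was visible in every stimulated sample. Nos2, which encodes inducible nitric oxide synthase, was at 45.7 and 31.8 normalized counts in Ctrl versus 37734 and 24545 in LPS. In efferocytic Mϕ it was at 23.7 and 26.8 before (Eff) and at 50429 and 39259 after stimulation (LPSEff). The cytokine gene Il6 went from 11.4 and 15.6 in Ctrl to 10573 and 8100 in LPS, and from 17.5 and 24 in Eff to 6706 and 6060 in LPSEff. Cxcl10 had log2 fold changes of 8.36 (naïve) and 9.07 (efferocytic), and Il1b of 8.73 and 8.26. All 4 genes were far above their unstimulated levels in each stimulated sample.

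Few of the 41 genes were called for LPS/IFNγ, and their number depended on the setting. Of the 41 genes, 2 were higher in LPS than in Ctrl and 2 were lower at an adjusted p under 0.05 (limma). Of all 16309 tested genes, 12.4% passed upwards and 11.6% downwards. LPSEff vs Eff gave 4 higher and 2 lower, where 10.7% and 8.95% of all genes passed. None of these counts was above the share of all genes, and counts this small do not set the list apart. The genes that rose were Sqstm1 and Optn in both settings and Tax1bp1 and Gabarapl1 in efferocytic Mϕ, and those that fell were Atg7 and Atg2b in both. The calls made in LPS vs Ctrl thus amount to 4 of 4 of the list of that comparison and to 4 of the 6 of LPSEff vs Eff. These comparisons share no sample, but both were tested in 1 fit with a spread shared over all groups, so that they are not independent. Over all genes, 2700 were called in both with the same direction, which is 69.1% of the first list and 84% of the second. With 1 added to each normalized count before taking logs, folds of weakly expressed genes come out too small. The 41 genes had a median log2 fold change of 0.10 (LPS vs Ctrl) and 0.15 (LPSEff vs Eff), against −0.01 and 0.01 for all tested genes. In both settings, 32 of the 41 (78%) had log2 fold changes between −0.5 and 0.5, which held for 46.4% of all genes in LPS vs Ctrl and 49.4% in LPSEff vs Eff. The median standard error was 0.23 for the 41 genes and 0.33 for all tested genes in both comparisons. These shares thus compare genes of unequal precision, and the part of this in the gap was not tested. Across the 41 genes, which are not independent replicates, both effects correlated with r = 0.903, and across all 16309 genes with r = 0.89. The result depended on scaling. Stimulated samples had larger sums of normalized counts, and with all samples set to equal totals the median of all genes shifted to −0.41 in LPS vs Ctrl and −0.44 in LPSEff vs Eff. The median of the 41 genes then turned negative (−0.30 in both), as did small positive changes of single genes. It lay 0.11 and 0.14 above the median of all genes on both scales. Equal totals shift all genes of a comparison alike and so cannot test this distance. On that scale, 2 of the 41 were higher and 9 lower in LPS vs Ctrl (all genes: 8.60% and 26.4%). In LPSEff vs Eff, 2 were higher and 8 lower (7.40% and 26.7%). Without Ctrl replicate 2, 2 of the 41 were called in LPS vs Ctrl, and without Eff replicate 1 or LPSEff replicate 2, 2 were called in LPSEff vs Eff. Calls over all genes also dropped, from 3910 to 2236 in the first case and from 3213 to 1556 and 2036 in the others. When all genes with a mean above 0 were tested, 3 were called in LPSEff vs Eff.

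**Figure D1:**
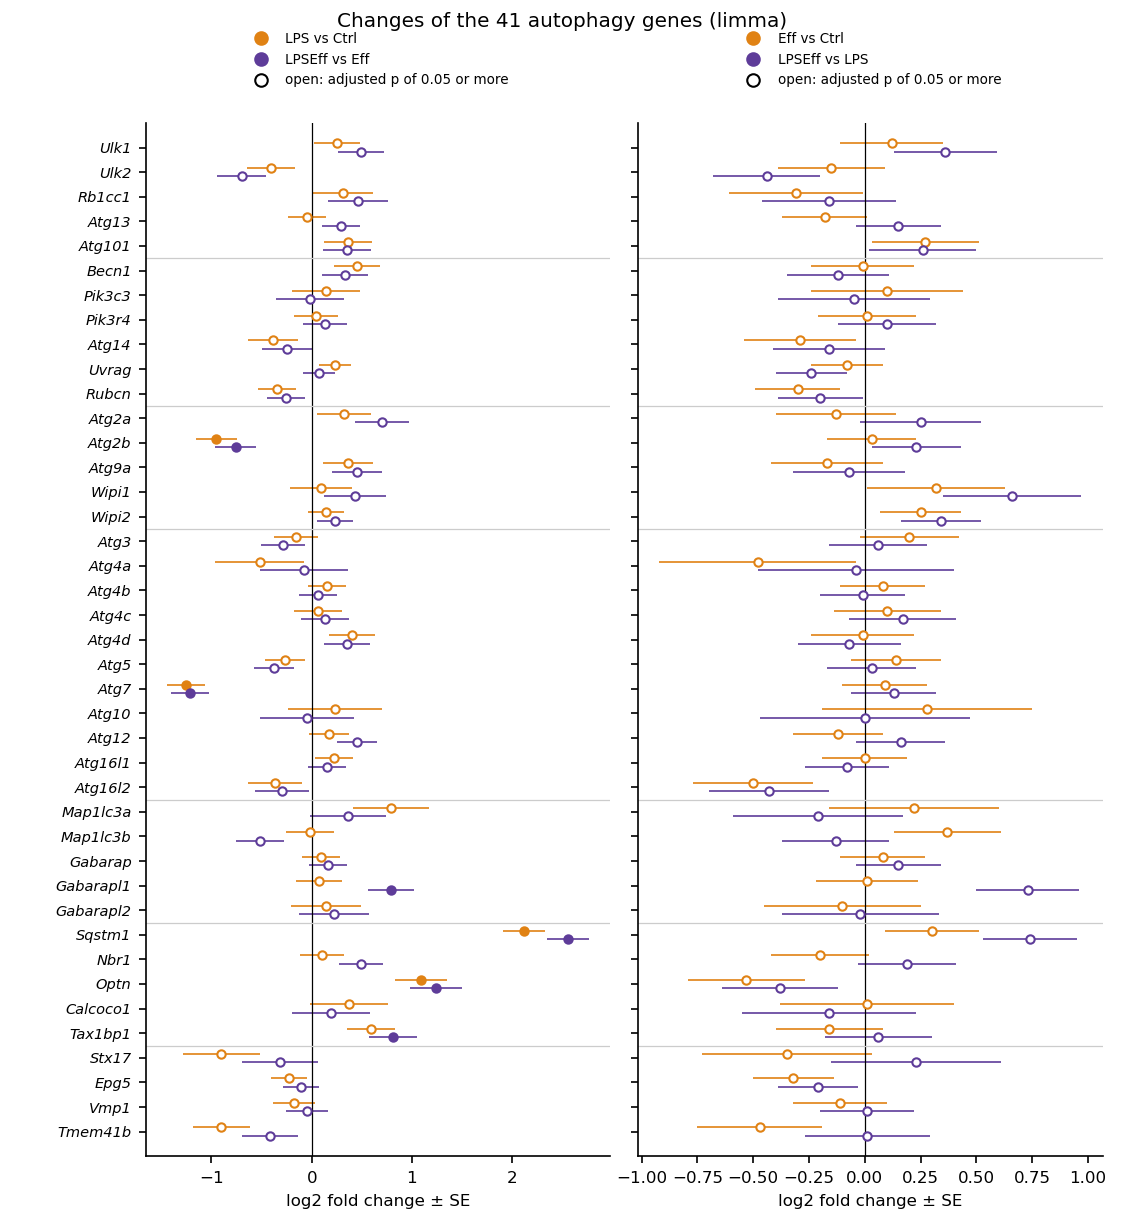
Log2 fold change with its standard error (limma, n = 2 samples per group) of each of the 41 autophagy genes, in LPS vs Ctrl and LPSEff vs Eff on the left and in Eff vs Ctrl and LPSEff vs LPS on the right, with grey lines between the groups of roles. Filled points had an adjusted p under 0.05, which held for 6 genes on the left and for 0 on the right; with equal totals all points on the left lie lower, and the medians of all genes are at −0.41 and −0.44.

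Cargo receptors bind ubiquitinated material and link it to ATG8 proteins, and 1 of them, Sqstm1, had the largest change of the 41 genes in both settings. Sqstm1, which encodes p62 (ENSMUSG00000015837, chr11:50089572-50107684, minus strand, GRCm39), was at 2106 and 2697 normalized counts in Ctrl, 9500 and 11323 in LPS, with 2763 and 3107 in Eff and 18071 and 16590 in LPSEff. All stimulated samples were above all unstimulated ones, and both LPSEff samples were above both LPS samples. Sqstm1 rose by 2.12 ± 0.21 (SE) on the log2 scale in naïve Mϕ (4.35-fold, adjusted p = 0.00036, limma) and by 2.56 ± 0.21 in efferocytic Mϕ (5.91-fold, adjusted p = 0.000135), and it was called under each alternative setting, with log2 fold changes from 1.34 to 2.30 and from 1.72 to 2.65. Optn, which encodes optineurin (ENSMUSG00000026672, chr2:5022703-5068945, minus strand), was at 164 and 135 in Ctrl, 259 and 392 in LPS, versus 93.8 and 113 in Eff and 231 and 260 in LPSEff. Here, too, the stimulated samples were above the unstimulated ones in both settings, but the LPS samples lay apart from each other. The rise was 1.09 ± 0.26 in naïve Mϕ (adjusted p = 0.0175) and 1.24 ± 0.26 in efferocytic Mϕ (adjusted p = 0.0116). The first call was lost without Ctrl replicate 1 (adjusted p = 0.0532), Ctrl replicate 2 (0.104) or LPS replicate 2 (0.0869), and the second without Eff replicate 1 (0.0808) or LPSEff replicate 2 (0.0654). Tax1bp1, another ubiquitin-binding receptor (ENSMUSG00000004535, chr6:52690676-52745153, plus strand), was at 1784 and 2061 in Ctrl, 2605 and 3197 in LPS, with 1383 and 2144 in Eff and 2886 and 3140 in LPSEff. Its stimulated samples were above the unstimulated ones in both settings, while the Eff samples were far apart. Tax1bp1 was called in efferocytic Mϕ (0.81 ± 0.24, adjusted p = 0.04996) and not in naïve Mϕ (0.59 ± 0.24, adjusted p = 0.119, and −0.01 with quantile normalization), and the first value lay at the threshold. It was not called with a pseudocount of 0.5 (adjusted p = 0.0502), with all genes above 0 (0.0834), with only the groups compared (0.0742), with equal totals (0.225) or quantile normalization (0.593), nor without Ctrl replicate 1 (0.075), Ctrl replicate 2 (0.0753), LPS replicate 2 (0.0501), Eff replicate 1 (0.293), LPSEff replicate 1 (0.14) or LPSEff replicate 2 (0.175). The other receptors, Nbr1 and Calcoco1, did not pass the test, with log2 fold changes of 0.10 and 0.37 in naïve and 0.49 and 0.19 in efferocytic Mϕ.

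**Figure D2:**
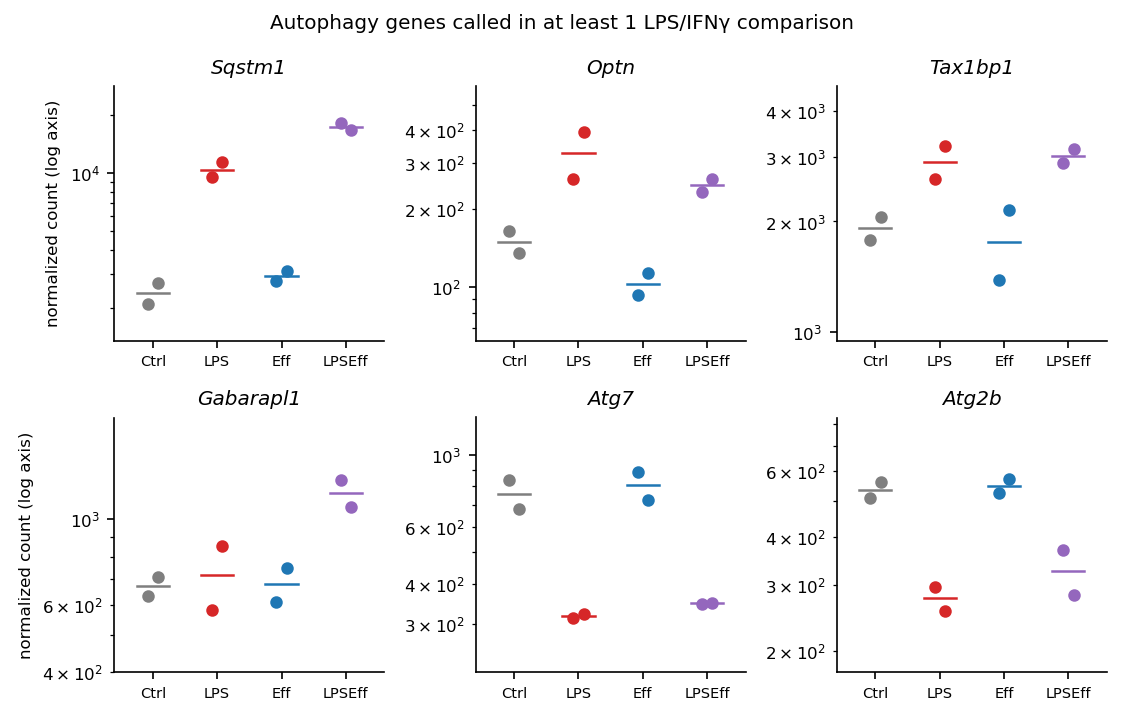
Normalized counts (log axis) of the 6 autophagy genes called in at least 1 LPS/IFNγ comparison, with a point for each sample and a line at the mean of each group (n = 2). Sqstm1 lies between 2106 and 3107 in the unstimulated and between 9500 and 18071 in the stimulated samples, whereas Atg7 lies between 682 and 886 in the unstimulated and between 313 and 349 in the stimulated samples.

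Among the 5 genes of the ATG8 family, whose products are attached to the autophagosomal membrane, only Gabarapl1 passed the test, and only in efferocytic Mϕ. Gabarapl1 (ENSMUSG00000030161, chr6:129509725-129520544, plus strand) was at 632 and 706 normalized counts in Ctrl, 581 and 851 in LPS, versus 609 and 745 in Eff and 1267 and 1075 in LPSEff. Both LPSEff samples were above the other 6, which overlapped. The log2 fold change was 0.79 ± 0.23 in LPSEff vs Eff (adjusted p = 0.0449, limma) and 0.07 ± 0.23 in LPS vs Ctrl (adjusted p = 0.86), where the latter turned to −0.33 with equal totals and −0.13 with quantile normalization. The difference between both effects was 0.72 ± 0.33 and did not pass the test (unadjusted p = 0.0575, adjusted p = 1). The call was lost with all genes above 0 (adjusted p = 0.0862), with equal totals (0.223) or quantile normalization (0.0665), and without Ctrl replicate 1 (0.0707), Ctrl replicate 2 (0.071), Eff replicate 1 (0.226), Eff replicate 2 (0.0902), LPSEff replicate 1 (0.212) or LPSEff replicate 2 (0.0892). Gabarap was at 1594 and 1618 in Ctrl, 1495 and 1950 in LPS, with 1593 and 1809 in Eff and 1877 and 1906 in LPSEff, so that the naïve groups overlapped and the LPSEff samples were slightly above the Eff samples. Its log2 fold changes of 0.09 and 0.16 turned to −0.31 and −0.29 with equal totals and to −0.38 and −0.34 with quantile normalization. Map1lc3a had the largest log2 fold change of the others in naïve Mϕ, 0.79 ± 0.38 (adjusted p = 0.18), at 20.9 and 35.9 in Ctrl and 40.1 and 57.9 in LPS. For Map1lc3b, which encodes LC3B, and for Gabarapl2, the values are uncertain. Of the windows of 50 bases along their canonical transcripts, 62.1% and 48.9% have a perfect copy elsewhere in the GRCm39 genome, and reads that map to several places are not counted in the default mode of the counting tool. The same applies to Atg4a (62.8%) and Tmem41b (32.4%). With equal totals, Map1lc3b was called lower in LPSEff vs Eff.

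The conjugation enzymes load ATG8 and ATG12 onto their targets. Of 11 genes, only Atg7, which encodes the E1-like enzyme shared by both reactions, passed the test. Atg7 (ENSMUSG00000030314, chr6:114620044-114837576, plus strand) was at 834 and 682 normalized counts in Ctrl, 313 and 322 in LPS, versus 886 and 726 in Eff and 345 and 349 in LPSEff. All 4 stimulated samples were below all 4 unstimulated ones. Atg7 fell by 1.25 ± 0.19 on the log2 scale in naïve Mϕ (2.37-fold, adjusted p = 0.0026, limma) and by 1.21 ± 0.19 in efferocytic Mϕ (2.31-fold, adjusted p = 0.00351), and it was called under each alternative setting. The other 10, Atg3, Atg4a, Atg4b, Atg4c, Atg4d, Atg5, Atg10, Atg12, Atg16l1 and Atg16l2, had log2 fold changes from −0.52 to 0.40 in naïve and from −0.38 to 0.45 in efferocytic Mϕ. Their smallest adjusted p was 0.267 and 0.173, respectively. With equal totals, Atg3 and Atg5 were also called lower in both settings.

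ATG2 proteins transfer lipids to the growing membrane, with ATG9 and the WIPI proteins as partners. Atg2b (ENSMUSG00000041341, chr12:105579795-105651569, minus strand) was at 508 and 561 normalized counts in Ctrl, 296 and 256 in LPS, with 524 and 570 in Eff and 370 and 282 in LPSEff. The stimulated samples were below the unstimulated ones in both settings. It fell by 0.95 ± 0.20 in naïve Mϕ (adjusted p = 0.0112, limma) and by 0.76 ± 0.20 in efferocytic Mϕ (adjusted p = 0.0328). The first call was lost without Ctrl replicate 2 (adjusted p = 0.0734) or LPS replicate 2 (0.0513), the second without Ctrl replicate 1 (0.0554), Ctrl replicate 2 (0.0557), Eff replicate 1 (0.112), Eff replicate 2 (0.163) or LPSEff replicate 2 (0.174), and also with all genes above 0 (0.0845) or only the groups compared (0.0583). The paralog Atg2a did not pass the test, with log2 fold changes of 0.32 and 0.70 (adjusted p = 0.465 and 0.112), but was called in LPSEff vs Eff without either Ctrl sample, and with equal totals the first value turned to −0.08. Atg9a, Wipi1 and Wipi2 had values from 0.09 to 0.36 in naïve and from 0.23 to 0.45 in efferocytic Mϕ and were not called, and 25.2% of the exon bases of Atg9a overlap a long noncoding RNA on the same strand, so that its count is uncertain.

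No gene of the ULK complex or of the class III PI3-kinase complexes was called in LPS vs Ctrl or LPSEff vs Eff. In the ULK complex (Ulk1, Ulk2, Rb1cc1, Atg13 and Atg101), which starts autophagosome formation, the log2 fold changes lay between −0.41 and 0.36 in naïve and between −0.70 and 0.49 in efferocytic Mϕ. Its member with the highest mean, Atg13, the adaptor of the kinase, was at 413 and 346 normalized counts in Ctrl, 357 and 375 in LPS, versus 312 and 354 in Eff and 443 and 371 in LPSEff, with overlapping naïve groups and LPSEff samples above Eff samples, although the log2 fold change of 0.29 in the latter turned to −0.16 with equal totals. Ulk2 had the smallest adjusted p of the complex, 0.0839 in LPSEff vs Eff (limma), at 303 and 402 in Eff and 203 and 227 in LPSEff, and it was called lower in both settings with equal totals and in LPSEff vs Eff with quantile normalization. Among Becn1, Pik3c3, Pik3r4, Atg14, Uvrag and Rubcn, which form or regulate the PI3-kinase complexes, Becn1 had the highest mean. It encodes Beclin 1 and was at 655 and 801 in Ctrl, 878 and 1112 in LPS, with 628 and 825 in Eff and 806 and 1022 in LPSEff. The LPS samples were above the Ctrl samples, and the efferocytic groups overlapped. Its log2 fold changes were 0.45 ± 0.23 (adjusted p = 0.207) and 0.33 ± 0.23 (adjusted p = 0.371), of which the second turned to −0.12 with equal totals. Rubcn, which encodes the inhibitor Rubicon, was called lower in both settings with equal totals.

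The list also holds the ER proteins Vmp1 and Tmem41b, the SNARE gene Stx17 and the tether gene Epg5, the latter both needed for fusion with lysosomes. None of them was called in LPS vs Ctrl or LPSEff vs Eff, although the log2 fold change was −0.90 for both Stx17 and Tmem41b in naïve Mϕ (adjusted p = 0.128 and 0.0507, limma). Tmem41b was at 122 and 98.3 normalized counts in Ctrl and 69.8 and 48.7 in LPS. Vmp1, the most abundant of them, was at 1099 and 920 in Ctrl, 905 and 873 in LPS, versus 804 and 1079 in Eff and 823 and 980 in LPSEff. Its efferocytic groups overlapped, and the LPS samples were slightly below the Ctrl samples. With equal totals, Epg5, Stx17 and Tmem41b were called lower in LPS vs Ctrl and Epg5 in LPSEff vs Eff. Tmem41b was also called in LPS vs Ctrl when a mean of at least 50 was asked for and without LPS replicate 1, and Stx17 without LPS replicate 2.

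For efferocytosis without stimulation, none of the 41 genes passed the test in Eff vs Ctrl at an adjusted p under 0.05 (limma). As only 0.251% of all genes were called, this count of 0 does not set the list apart. A p above the threshold does not show that there is no difference. Of the 41 genes, 0 had an unadjusted p under 0.05, against 6.13% of all genes. With edgeR, 0 were called and 1 had an unadjusted p under 0.05, and with DESeq2 these counts were 0 and 0. The median log2 fold change was −0.01, equal to that of all genes, and 40 of the 41 had values between −0.5 and 0.5 (78.1% of all genes did). Here, too, the 41 genes were measured more precisely, with a median standard error of 0.23 against 0.33 for all genes. The smallest unadjusted p-values belonged to Optn (0.0727), Atg16l2 and Epg5. Optn was at 164 and 135 normalized counts in Ctrl and 93.8 and 113 in Eff, a log2 difference of −0.53 ± 0.26. Atg16l2, a paralog of the conjugation factor gene Atg16l1, was at 99 and 89.6 in Ctrl and 59.6 and 74.1 in Eff (−0.50 ± 0.27). Epg5 was at 465 and 460 in Ctrl and 365 and 375 in Eff (−0.32 ± 0.18). In all 3 genes both Eff samples were below both Ctrl samples, but the choice by smallest p favours such separation and it adds no support. Their adjusted p-values were at least 0.891.

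In stimulated Mϕ, none of the 41 genes passed the test for prior efferocytosis in LPSEff vs LPS at an adjusted p under 0.05 (limma, 0.773% of all genes), and 2 had an unadjusted p under 0.05 (10.3% of all genes). With edgeR, 0 were called and 2 had an unadjusted p under 0.05, whereas DESeq2 called 1, Sqstm1 (adjusted p = 0.0372). The 3 smallest p-values were those of Sqstm1, Gabarapl1 and Wipi1. Sqstm1 was at 9500 and 11323 normalized counts in LPS and 18071 and 16590 in LPSEff, a difference of 0.74 ± 0.21 (unadjusted p = 0.00729, adjusted p = 0.222). Gabarapl1 was at 581 and 851 in LPS and 1267 and 1075 in LPSEff, a difference of 0.73 ± 0.23 (unadjusted p = 0.0127, adjusted p = 0.279). Wipi1, a phosphoinositide-binding protein of the nascent membrane, was at 51.7 and 38.6 in LPS and 73.6 and 68.5 in LPSEff, a difference of 0.66 ± 0.31 (unadjusted p = 0.0642, adjusted p = 0.531). In each of the 3, both LPSEff samples were above both LPS samples, which the choice by smallest p favours and which adds no support. With the replicate number as a block, Sqstm1 and Gabarapl1 were called, as given under the dependence on processing. The sums of fibroblast markers were also higher in LPSEff (10575 and 12063) than in LPS (3845 and 4308), and their part in these differences was not tested. A difference of the LPS/IFNγ effect between naïve and efferocytic Mϕ passed the test for none of the 41 genes (limma, 0 called, 0% of all genes, and 0 with an unadjusted p under 0.05 against 1.91% of all genes). EdgeR called 0 with 1 under an unadjusted p of 0.05, and DESeq2 called 0 with 0. The median standard error of this difference was 0.33 on the log2 scale over the 41 genes, and a p above the threshold does not show that there is no difference.

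The RNA levels of the genes were very different. Averaged over all samples, the lowest member had a mean of 17.4 normalized counts and the highest 8269, and each was covered by at least 10 reads in every sample. All 41 passed the filter on low values. Per kb of annotated exon, the median level was 35.7 normalized counts. Sqstm1 (1008 per kb), Gabarap (767), Gabarapl1 (219), Tax1bp1 (207) and Vmp1 (135) led this order. In Ctrl, however, Gabarap was first with 712 normalized counts per kb and Sqstm1 second with 293, whereas in LPSEff Sqstm1 was at 2113 and Gabarap at 838. The LC3 genes were lower than Gabarap, with 28.7 normalized counts per kb for Map1lc3a and 20.4 for Map1lc3b, which can be undercounted for the copies given above. The size of this gap depends on the length used. Per kb of the GENCODE canonical transcript, an alternative added after these levels had been seen, Map1lc3b was at 175, Map1lc3a at 46, Gabarap at 981 and Sqstm1 at 2530. Per kb of annotated exon, Atg4a (3.6) and Gabarapl2 (5.6) were lowest, and both have such copies. Per kb of the canonical transcript, Atg4a (7.8) and Atg16l2 (10.7) were lowest, with Gabarapl2 at 14.5. On that length, Tax1bp1 (509) was also above Gabarapl1 (444), and Atg3 (300) above Vmp1 (275).

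**Figure D3:**
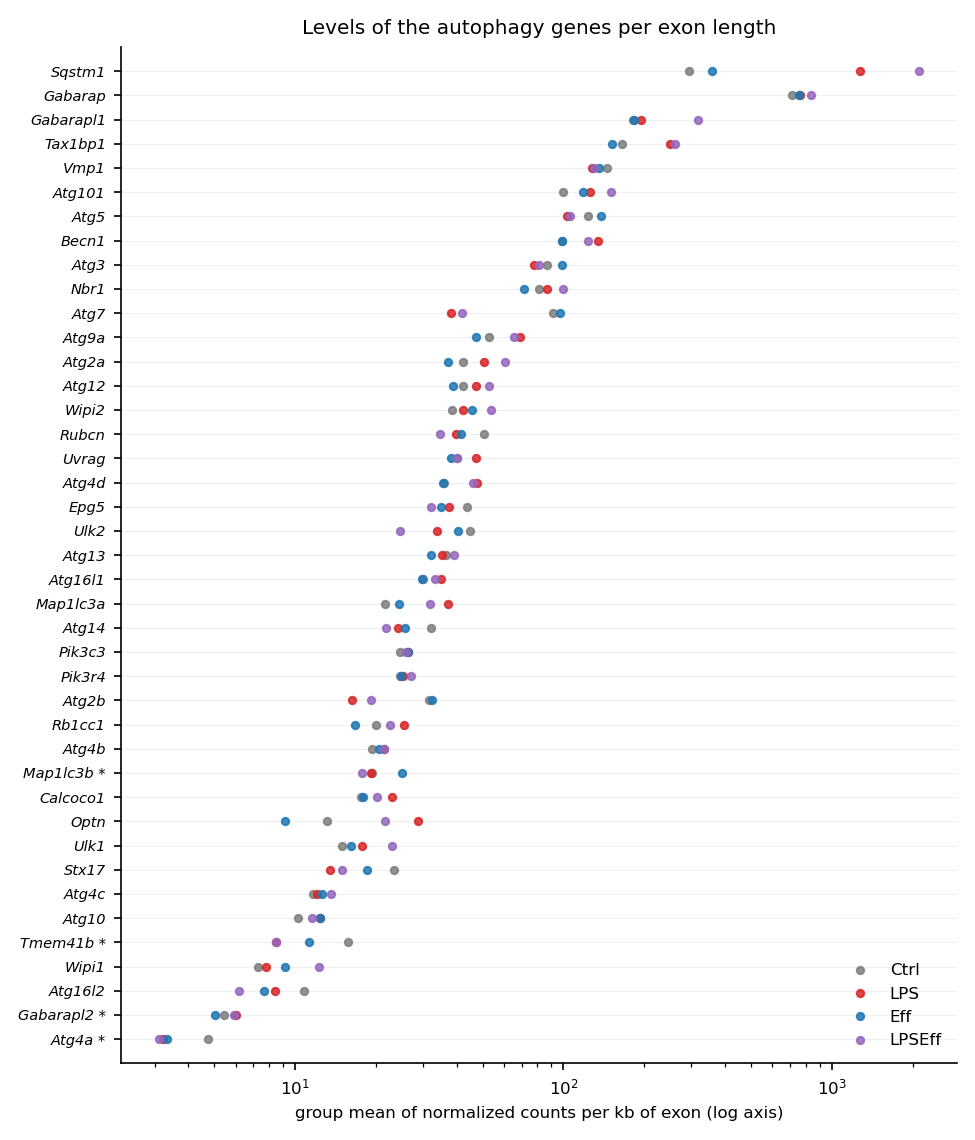
Group means (n = 2) of normalized counts per kb of annotated exon (log axis) for the 41 autophagy genes, ordered by the mean over all samples, with an asterisk for the 4 genes that have perfect copies elsewhere in the genome over more than 30% of their windows. Sqstm1 runs from 293 in Ctrl to 2113 in LPSEff, while Gabarap stays between 712 and 838.

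Among further genes of the pathway, 45 were tested. In LPS vs Ctrl, 5 were higher and 3 lower at an adjusted p under 0.05 (limma, where 12.4% and 11.6% of all genes were), and in LPSEff vs Eff 2 were higher and 3 lower (10.7% and 8.95% of all genes). None was called in Eff vs Ctrl or LPSEff vs LPS by limma, edgeR or DESeq2, with unadjusted p under 0.05 for 1, 1 and 2 genes in the former and for 2, 3 and 1 in the latter. Over all 16309 genes these were 1000, 1049 and 900, and 1679, 1830 and 1484. Single samples mattered, as 5 genes were called in LPS vs Ctrl without Ctrl replicate 1, 4 without Ctrl replicate 2 or LPS replicate 2, and 3 in LPSEff vs Eff without Eff replicate 1. Tfeb, which encodes a transcription factor of lysosomal and autophagy genes, was at 440 and 278 normalized counts in Ctrl, 64.7 and 86.3 in LPS, with 306 and 240 in Eff and 58.6 and 57.1 in LPSEff. All stimulated samples were below all unstimulated ones, and Tfeb fell by 2.21 ± 0.29 on the log2 scale in both settings (adjusted p = 0.00124 and 0.00139). Plekhm1, an adaptor for fusion with lysosomes, fell by 1.80 ± 0.26 in naïve Mϕ (1657 and 1116 in Ctrl, 380 and 400 in LPS) and by 1.30 ± 0.26 in efferocytic Mϕ (1447 and 1143 in Eff, 619 and 442 in LPSEff). Vps33a, a subunit of the tethering complexes at the lysosome, fell by 0.65 ± 0.16 (1200 and 1279 in Ctrl, 788 and 787 in LPS) and by 0.61 ± 0.16 (1269 and 1253 in Eff, 869 and 783 in LPSEff). Groups did not overlap in either gene. The Plekhm1 call in efferocytic Mϕ was lost without Eff replicate 1 (adjusted p = 0.0746) or LPSEff replicate 2 (0.0619). For Vps33a, each sample of the compared groups was needed, with adjusted p from 0.0625 to 0.11 in naïve Mϕ and from 0.0898 to 0.15 in efferocytic Mϕ when it was left out, and without a Ctrl sample the efferocytic call was lost as well (0.0546 and 0.054). Both Vps33a calls were also lost with all genes above 0 (0.0739 and 0.116) and with only the groups compared (0.076 and 0.0624). Cybb, the catalytic subunit of the NADPH oxidase of phagosomes, was at 6101 and 6612 in Ctrl, 18555 and 22532 in LPS, versus 2833 and 4523 in Eff and 18625 and 23259 in LPSEff, and it rose by 1.69 ± 0.27 and 2.54 ± 0.27 (adjusted p = 0.0033 and 0.000524), or by 0.82 (adjusted p = 0.0438) and 1.75 with quantile normalization. Tbk1, a kinase that phosphorylates cargo receptors such as optineurin, was at 617 and 785 in Ctrl, 1560 and 1786 in LPS, with 690 and 805 in Eff and 1671 and 1675 in LPSEff, and rose by 1.26 ± 0.19 and 1.17 ± 0.19. All stimulated samples of both genes were above the unstimulated ones. Foxo1, which encodes a transcription factor, rose in naïve Mϕ (110 and 128 in Ctrl, 193 and 298 in LPS, log2 fold change 1.01 ± 0.25) and was not called in efferocytic Mϕ (0.35 ± 0.25, adjusted p = 0.39), and its call was lost with only the groups compared (0.0647), with equal totals (0.0652) and without Ctrl replicate 1 (0.118), Ctrl replicate 2 (0.0672) or LPS replicate 2 (0.106).

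Promoters of the genes that moved were inspected for letters that known factors bind. RefSeq promoter windows (GRCm38.p6, 250 bases before to 50 after the gene start) were given for 34 of the 41 genes and were searched on both strands. Rb1cc1, Becn1, Pik3c3, Atg12, Atg16l1, Map1lc3a and Epg5 had none. CACGTG, the core of the element bound by TFEB, was in 5 of 34 (14.7%), against 8.09% of 27025 genes, and its longer form TCACGTGA, which includes it, in 1 (2.94% against 1.12%). GAAANNGAA, the core of the interferon-stimulated response element, was in 3 (8.82% against 9.76%), TGACNNNGC, an NRF2 element, in 5 (14.7% against 14%), and the kappaB consensus in 5 (14.7% against 9.55%). Among the genes called, Sqstm1 had a kappaB match, Atg7 one to CACGTG and Tax1bp1 one each to TGACNNNGC and the kappaB consensus, while Optn and Atg2b had none. These matches depend on the gene start used. With windows of the same length at the GENCODE canonical starts (GRCm39), an alternative chosen after these matches had been seen, the windows of Sqstm1 and Atg7 shared no run of 30 bases with those of RefSeq, as in 4 of the 34 genes. There, Sqstm1 had 2 matches to TGACNNNGC and none to kappaB, and Atg7 and Tax1bp1 had none. The background at these starts was 15319 protein-coding genes with a RefSeq window, so that its shares differ in gene set from those above. At these starts, the kappaB consensus was in 1 of the 34 genes (2.94% against 9.39% of that background). TGACNNNGC was in 3 (8.82% against 13.4%), TCACGTGA in 0 (0% against 1.31%) and CACGTG in 4 (11.8% against 8.54%). The 250 bases before the RefSeq start are given for Sqstm1 (chr11:50210821-50211070, minus strand) and Optn (chr2:5064118-5064367, minus strand) of GRCm38.p6, the 2 genes with the largest rises, 5′ to 3′, with the matched letters in capitals. A match is a description of letters, not of binding.
Sqstm1: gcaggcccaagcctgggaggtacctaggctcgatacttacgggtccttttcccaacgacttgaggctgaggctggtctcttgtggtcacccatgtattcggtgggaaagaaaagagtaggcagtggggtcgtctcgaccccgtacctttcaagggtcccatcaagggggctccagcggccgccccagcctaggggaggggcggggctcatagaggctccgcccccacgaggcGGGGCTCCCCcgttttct
Optn: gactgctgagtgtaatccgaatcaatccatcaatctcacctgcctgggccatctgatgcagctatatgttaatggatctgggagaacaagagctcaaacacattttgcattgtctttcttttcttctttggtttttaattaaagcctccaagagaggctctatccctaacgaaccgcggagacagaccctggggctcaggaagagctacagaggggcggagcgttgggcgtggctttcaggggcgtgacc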

How the data were processed

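The authors depleted rRNA, trimmed single-end reads with cutadapt, filtered out rRNA (bowtie2), aligned to mm39 (STAR), counted with htseq-count in default mode and normalized with DESeq2; versions and the annotation release are not given in the sources used here. The deposited signal is the normalized count, i.e., reads divided by a size factor per sample, and 100% of the values were whole multiples (within 0.01 reads) of a single step, which gave the reads. Genes were named from GENCODE annotation of GRCm39.

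Two-sided limma-trend tests (limma 3.58.1 in R 4.3.3) on log2(normalized count + 1) used group means of all 8 samples in 1 fit with 4 residual degrees of freedom. The 16309 genes whose mean reached 10 entered, p was adjusted over all of them by Benjamini-Hochberg, and the threshold was 0.05. With 2 samples against 2, permuting labels exactly gives at least p = 0.333. Alternatives were a pseudocount of 0.5 or 5, a minimum mean above 0 or of 50, a fit of 2 groups alone, the replicate number as a block, equal totals, quantile normalization, edgeR 4.0.16 and DESeq2 1.42.0 on the recovered reads, and leaving out each sample. The tests were checked on simulated counts. Gene starts of GENCODE were added as an alternative after the promoter matches had been seen.

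Members and lists were chosen with earlier results of these data known. Named with all values were members called in any comparison, otherwise the most abundant member of a role, the 3 smallest p-values per efferocytosis comparison, and the 3 largest called changes per direction of the further pathway genes. Matches to 1 promoter element and values of 1 further pathway gene are not reported here.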

Additional observations from a re-analysis of the deposited data

How the results depend on the processing

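Over the alternatives, Sqstm1 and Atg7 were called in LPS vs Ctrl and in LPSEff vs Eff under all 18. None of the 41 genes changed sign in a comparison in which the fit reported called it. Some changes that this fit did not call turned sign under other scalings, among them that of Tax1bp1 in LPS vs Ctrl, which the replicate block called. The counts moved by over 1.5 times as follows. With equal totals, 11 of the 41 genes were called in LPS vs Ctrl (4 in the fit reported) and 10 in LPSEff vs Eff (6), 5576 of all genes in LPSEff vs Eff (3213), and of the further pathway genes 18 (8) and 15 (5); equal totals shift all genes downwards, as given above. With genes with a mean above 0, 3 of the 41 were called in LPSEff vs Eff, and 79 of all genes in Eff vs Ctrl (41), where a mean of at least 50 gave 20. With only the groups compared, 5 further pathway genes were called in LPS vs Ctrl, 9 of all genes in Eff vs Ctrl, and for LPSEff vs LPS 66 (126). Quantile normalization, edgeR and DESeq2 each called 8 further pathway genes in LPSEff vs Eff. EdgeR called 14 of all genes in Eff vs Ctrl, and DESeq2 called 207 there and 368 in LPSEff vs LPS, with 1 of the 41 in the latter. Apart from equal totals and the tests of more, fewer or other genes, the cause was not tested.

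With the replicate block, 8 of the 41 genes were called in LPS vs Ctrl, 11 in LPSEff vs Eff, 0 in Eff vs Ctrl and 2 (Sqstm1, adjusted p = 0.0199, and Gabarapl1, 0.0348) in LPSEff vs LPS, among 6717, 6033, 436 and 1137 of all genes, and 16, 14, 2 and 2 further pathway genes. The first 2 counts added Becn1, Stx17, Tax1bp1 and Tmem41b, and Atg12, Atg2a, Map1lc3b, Nbr1 and Ulk2, respectively. Same-numbered samples deviated together (r from 0.404 to 0.595 across all genes, from 0.354 to 0.596 across the 41), but the labels do not say what a shared number stands for.

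Leaving out 1 sample at a time gave 2 to 5 of the 41 genes in LPS vs Ctrl and 2 to 6 in LPSEff vs Eff, 0 of them in Eff vs Ctrl, LPSEff vs LPS or the difference between both effects, 4 to 8 and 3 to 6 further pathway genes, and of all genes 2077 to 3577 and 1556 to 3410 in these comparisons, 0 to 41 in Eff vs Ctrl, and for LPSEff vs LPS 0 to 84; the lone sample left in a group is assumed to vary like the others. At GENCODE starts, an alternative added after seeing the data, 1 of 34 genes had a kappaB match, against 5 at RefSeq starts. TGACNNNGC was in 3 against 5, TCACGTGA in 0 against 1 and CACGTG in 4 against 5. The shares of the 34 genes at GENCODE starts were 2.94%, 8.82%, 0% and 11.8%, in this order. Of 15319 protein-coding genes with a RefSeq window, 9.39%, 13.4%, 1.31% and 8.54% had these matches. Counts this small do not show that the 34 genes differ from these shares. Groups held 2 samples, and mRNA levels do not measure autophagic flux.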
